A study of Mus musculus with 36 samples.

Results

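The genes described are 47 listed enzymes, transporters and sensors of xenobiotic and hormone metabolism, measured in mouse colon. Each was taken as the probe set annotated to that gene alone, with the highest mean over the 36 arrays where a gene had several. By this rule 46 of the 47 were measured, among 19938 genes with such a probe set. Cyp4v3 was found only on a probe set shared with Klkb1 and was not used.

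The study measured gene expression in distal colon with 1 Affymetrix array per sample, in mice given siRNAs against Tnf, the gene of the inflammatory cytokine tumour necrosis factor. The groups were 9 Control arrays, 7 with a scrambled siRNA (scrambled), 6 with an unmodified Tnf siRNA (siTNF), 6 with a Tnf siRNA carrying O-methyl nucleotides (siTNF-OMe) and 8 with one carrying O-methyl-propanediol nucleotides (siTNF-OMe-P). The siRNAs were given into the rectum, and their dose and timing are not given in the sources used here, nor are strain, sex and age. All 36 animals, Control included, are labelled with 5% DSS (dextran sulfate sodium, a polymer that injures the colon lining), while the series' design text names only the siRNA-dosed groups. Control is therefore used as a group name and not as a statement of what those animals received.

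Metabolic enzymes of this kind act in stages. Cytochromes P450, flavin monooxygenases, dehydrogenases and esterases add or expose a reactive group, transferases then attach sulfate or glutathione, and efflux pumps carry the product out of the cell. The colon epithelium carries many of them because it faces bacterial products and food chemicals, and receptors such as the aryl hydrocarbon receptor and the pregnane X receptor switch several of them on. Some of the same enzymes handle the body's own signals, such as retinoic acid and thyroid hormone.

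Values are log2 signals, so a difference of 1 is a doubling in scale. On 8 arrays the SD over all probe sets was under 1.7, called narrow spread here: 4 of 9 Control, 1 of 7 scrambled, 1 of 6 siTNF, 0 of 6 siTNF-OMe and 2 of 8 siTNF-OMe-P. The array SD had a correlation of -0.969 with the first principal component, which held 48.8% of the variance, so the main counts are given with and without these arrays. As a check of the tissue, the mean of 12 epithelial marker genes lay between 11.90 and 12.58 on all 36 arrays. Lists of other tissues stood apart on some arrays. The mean of 5 hepatocyte markers was 11.09 on scrambled replicate 3, with 9.33 the highest on any other array, and the mean of 7 squamous markers, at most 8.02 in Control and 7.90 in scrambled, reached 9.96 on siTNF replicate 3, 10.75 in siTNF-OMe and 11.53 in siTNF-OMe-P.

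In the scrambled group, 13 of the 46 metabolic genes were lower than in Control and 1, Aldh1a3, was higher (limma, adjusted p under 0.05 over all 28853 probe sets). That is 30.4% of the genes, where 11.7% of all probe sets passed in this comparison; for falls alone the shares were 28.3% and 4.45%, and for rises 2.17% and 7.27%. The median difference over the 46 genes was -0.12 log2, and -0.027 over all probe sets. The largest falls were in the esterase Aadac and the thyroid hormone deiodinase Dio1, each about 3-fold, and Aldh1a3 rose 4.74-fold. Without the narrow arrays 27 fell and 3 rose, when 21.9% of all probe sets fell, 28.0% rose and 50.0% passed, and all 14 calls were kept.

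**Figure D1:**
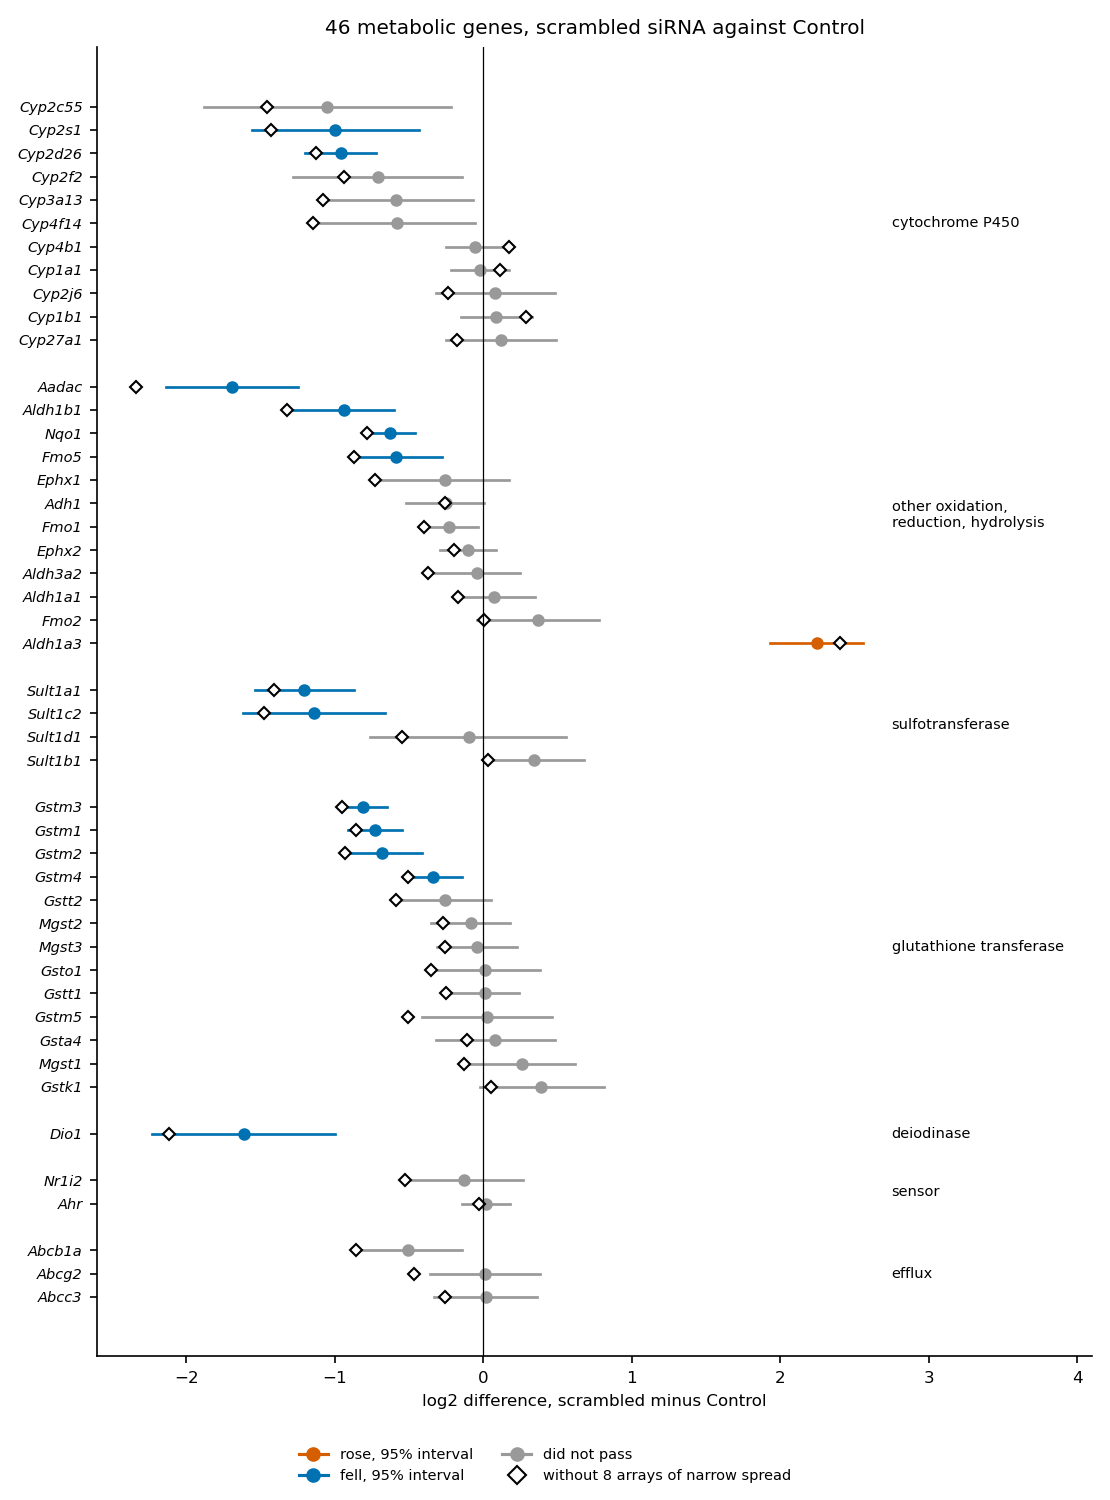
Differences between scrambled and Control on the log2 scale (x axis) for the 46 measured genes (y axis), grouped by role; circles with bars are the differences with 95% intervals and open diamonds the differences without the 8 arrays of narrow spread. Aldh1a3 lies alone at 2.25, while the 13 genes that fell lie between -0.34 and -1.69.

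Against the same Control arrays, siTNF gave 13 falls and 2 rises (32.6% called, 13.8% of all probe sets), siTNF-OMe 16 and 1 (37.0%, 14.8%) and siTNF-OMe-P 19 and 1 (43.5%, 15.9%). Over all probe sets the falls were 4.71% in siTNF, 5.81% in siTNF-OMe and 6.58% in siTNF-OMe-P, and the rises 9.09%, 9.01% and 9.35%. The 4 comparisons share their Control arrays, so they are not independent of each other. The share of all probe sets called in all 4 is not given here. Counts of genes called in all 4, with or without the narrow arrays, therefore have no background to be set against. In all 4, Aldh1a3 rose and the same 13 genes fell: Cyp2d26, Cyp2s1, Fmo5, Aldh1b1, Nqo1, Aadac, Sult1a1, Sult1c2, Gstm1, Gstm2, Gstm3, Gstm4 and Dio1. A further 8 genes passed in at least 1 comparison, and 24 passed in none. On the arrays of wider spread the counts were 20 falls and 1 rise for siTNF (20.9% of all probe sets called, 12.2% falls and 8.62% rises), 32 and 3 for siTNF-OMe (54.0%, 24.1% and 29.9%) and 32 and 3 for siTNF-OMe-P (48.0%, 21.9% and 26.1%). With those arrays left out, 20 genes fell in all 4 comparisons and 8 passed in none: Cyp1a1, Cyp27a1, Fmo2, Aldh1a1, Sult1b1, Gsta4, Gstk1 and Ahr.

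**Figure D2:**
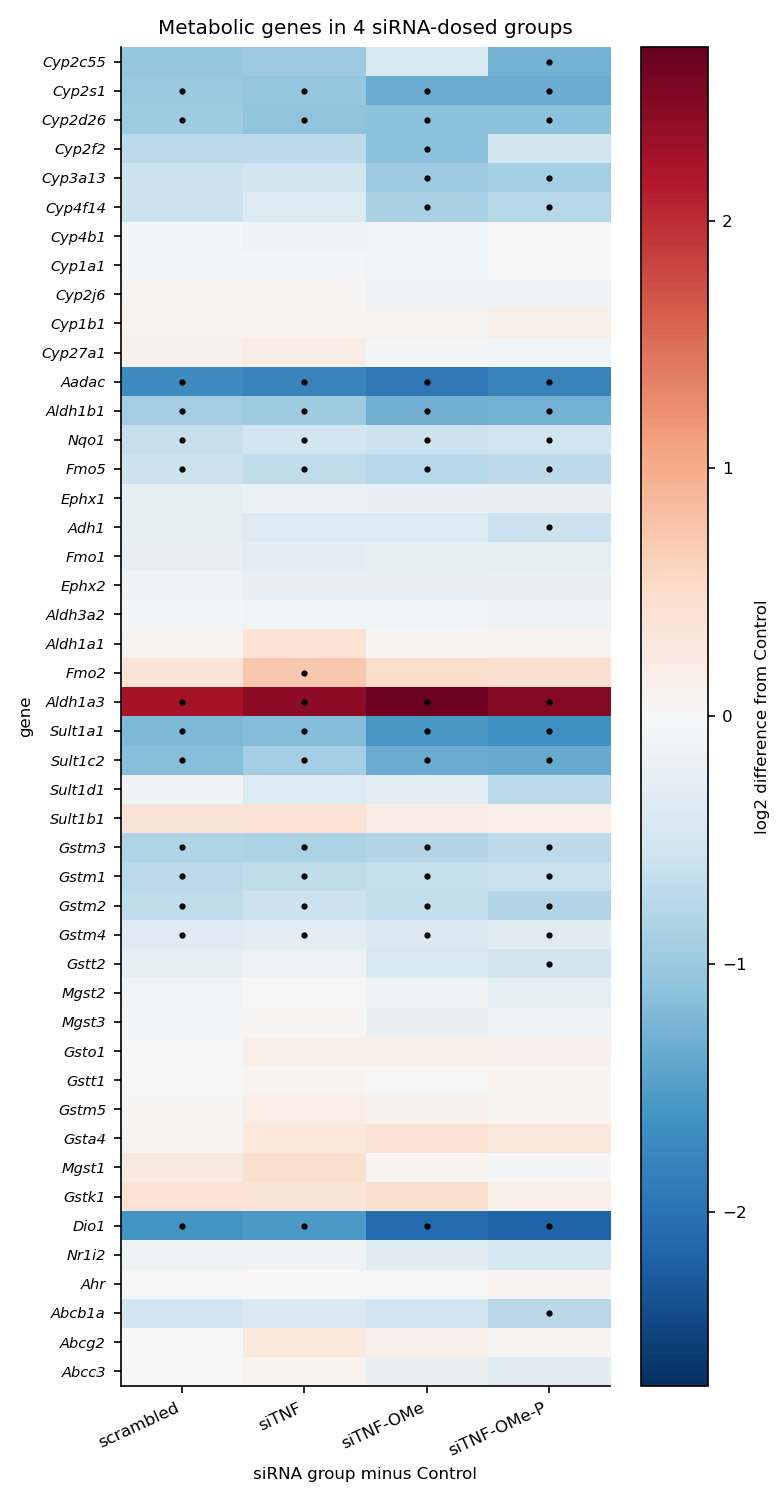
Log2 difference from Control (colour, blue lower and red higher) in the 4 siRNA-dosed groups (columns) for the 46 genes (rows); a dot marks a gene that passed the test. The 13 genes that fell and Aldh1a3, which rose, carry a dot in every column.

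For 6 of the 46 genes no scrambled array overlapped any Control array, 5 of them lower and 1 higher, where 2.68% of all probe sets were without overlap, 0.863% lower and 1.82% higher. There were 6 such genes in siTNF (3.24% of all probe sets), 14 in siTNF-OMe (6.36%) and 10 in siTNF-OMe-P (3.51%). All calls kept their direction within each of the 2 hybridization and 3 amplification batches taken alone. Of the 14 scrambled calls, 13 and 7 also passed within hybridization batches 1 and 2, with 1031 and 1048 of 28853 probe sets called. Within amplification batches 2 and 3, 9 and 2 passed, with 3426 and 54 of 28853 probe sets called. Amplification batch 1 held only 1 scrambled and 2 Control arrays, so its scrambled calls are not counted. In a bulk tissue sample, fewer cells of a type and less RNA per cell cannot be told apart.

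Among the enzymes of oxidation, reduction and hydrolysis outside the P450 family, Aldh1a3 was the gene that rose in every siRNA-dosed group. It encodes a retinal dehydrogenase, an enzyme that makes retinoic acid. Its Control signal was 8.36 at the lowest, 8.62 at the median and 8.83 at the highest of 9 arrays. In scrambled these values were 10.51, 10.83 and 11.41, in siTNF 10.58, 10.92 and 11.63, in siTNF-OMe 10.92, 11.12 and 11.73, and in siTNF-OMe-P 10.57, 11.13 and 11.46. Every one of the 27 siRNA-dosed arrays lay above every Control array. The differences from Control were 2.25 ± 0.15 (SE), 2.42 ± 0.16, 2.64 ± 0.16 and 2.47 ± 0.15 log2 in the same order (limma, adjusted p 3.00e-12, 1.31e-12, 1.12e-13 and 7.50e-14). Over 15 alternative settings of the fit, single batches among them, the scrambled difference ran from 2.10 to 2.47.

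Aadac, an esterase that removes acetyl groups from drugs and lipids, moved the other way. Its Control arrays were spread from 7.55 to 9.61 with a median of 8.46. The scrambled arrays ran from 6.47 to 7.13 with a median of 6.92, and the 3 Tnf siRNA groups from 6.42 to 7.28 with medians of 6.84, 6.65 and 6.73. No siRNA-dosed array reached the lowest Control array. Aadac fell by 1.69 ± 0.22 log2 in scrambled (limma, adjusted p = 1.34e-06), which is 3.24-fold, and by 1.78, 1.93 and 1.81 in siTNF, siTNF-OMe and siTNF-OMe-P. The 4 Control arrays of narrow spread were the lowest of that group, and on the arrays of wider spread Aadac fell by 2.34 log2 in scrambled.

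Aldh1b1, a mitochondrial aldehyde dehydrogenase, had Control values of 9.57, 10.57 and 11.09 (lowest, median, highest) and scrambled values of 9.05, 9.25 and 9.88. The medians were 9.46 in siTNF, 9.00 in siTNF-OMe and 9.03 in siTNF-OMe-P. All scrambled arrays lay below the Control mean, but the ranges of scrambled and siTNF overlapped that of Control, and those of siTNF-OMe and siTNF-OMe-P did not. It fell by 0.94 ± 0.17 log2 in scrambled (limma, adjusted p = 1.47e-04) and by 0.95, 1.29 and 1.28 in the other groups. Fmo5, a flavin monooxygenase that oxidises carbonyl compounds, had Control values of 8.96, 9.56 and 9.99 and scrambled values of 8.44, 8.84 and 9.63, with 6 of 7 scrambled arrays below the Control mean. It fell by 0.59 ± 0.15 log2 (limma, adjusted p = 0.00669) and by 0.69, 0.78 and 0.70 in the Tnf siRNA groups.

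Nqo1, a quinone reductase known as a target of the oxidative stress factor Nrf2, was also lower. Control ran from 7.43 through a median of 7.64 to 8.07, and scrambled from 7.00 through 7.09 to 7.15, without overlap. The siTNF arrays ran from 6.95 to 7.57 and overlapped Control, while the highest values of siTNF-OMe and siTNF-OMe-P, 7.28 and 7.33, lay below it. Nqo1 fell by 0.63 ± 0.082 log2 in scrambled (limma, adjusted p = 1.53e-06) and by 0.52, 0.58 and 0.54 in the other groups. On a separate list of 8 other Nrf2 target genes, 7 were measured and 4 rose in scrambled, among them Hmox1, heme oxygenase, by 1.07 ± 0.27 log2, Me1, malic enzyme, by 0.57 and Srxn1, sulfiredoxin, by 0.43 (limma, adjusted p 0.00653, 0.0202 and 0.0164). None of the 7 fell in scrambled, and without the narrow arrays Hmox1 was the 1 that still rose there. Of all probe sets in scrambled, 7.27% rose on all arrays and 28.0% without the narrow ones.

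Other members of this role changed less. Fmo2, a second flavin monooxygenase, rose in siTNF by 0.72 ± 0.21 log2 (limma, adjusted p = 0.0191) and did not pass elsewhere, without siTNF replicate 3 or 4, or without the narrow arrays, where its siTNF difference was 0.27. Adh1, an alcohol dehydrogenase that also handles retinol, had a narrow Control range of 13.14 to 13.26 and ran from 11.94 to 13.12 in siTNF-OMe-P, where it fell by 0.59 ± 0.12 (limma, adjusted p = 6.90e-04). In siTNF-OMe its arrays, at 12.73 to 12.96, also lay below Control, with a difference of -0.36 that did not pass. Fmo1, Aldh1a1, Aldh3a2, Ephx1 and Ephx2 passed in no comparison on all arrays, with scrambled differences between -0.26 and 0.074. Of these, Ephx1, a microsomal epoxide hydrolase, Aldh3a2, a fatty aldehyde dehydrogenase, and Fmo1 fell in all 4 comparisons once the narrow arrays were left out.

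**Figure D3:**
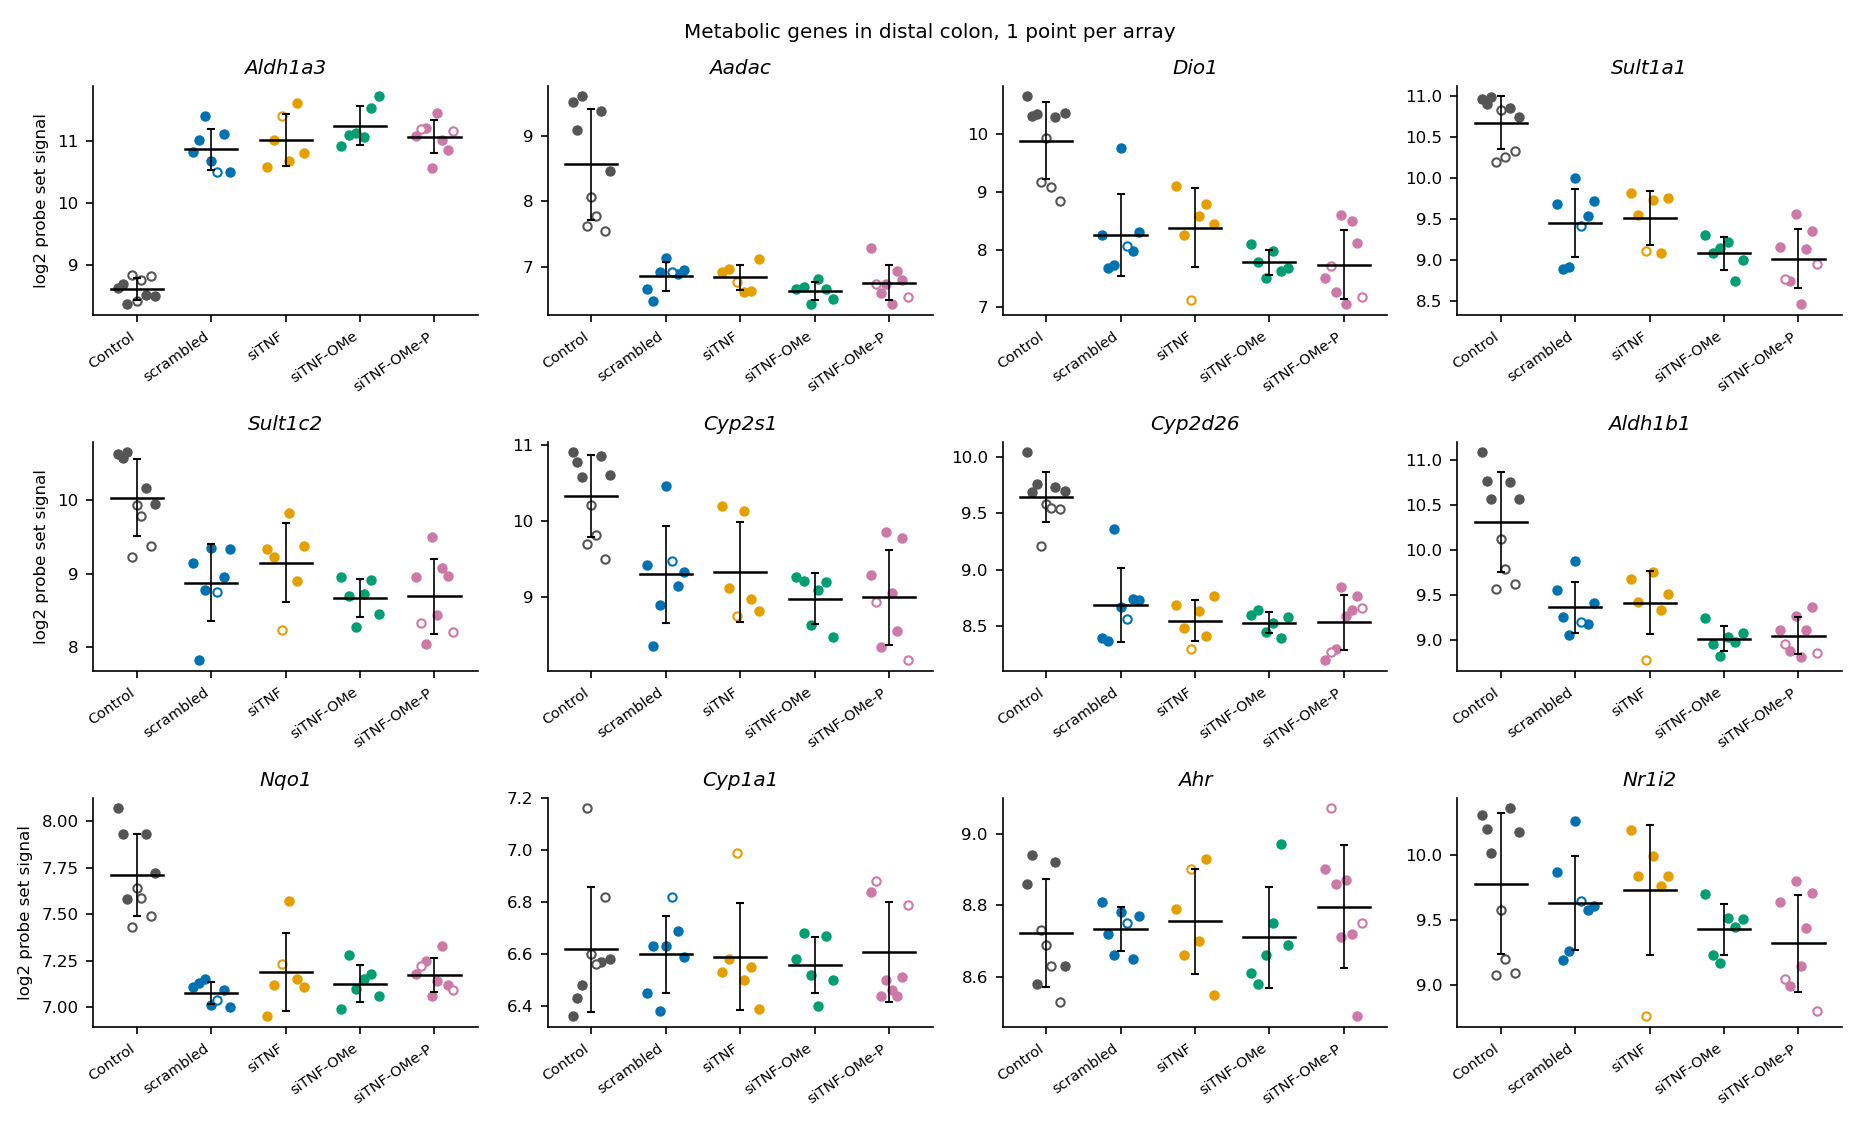
Log2 probe set signal (y axis) of 12 metabolic genes in the 5 groups (x axis), 1 point per array; lines and bars are the mean ± SD, and open points mark the arrays of narrow spread. Aldh1a3 is above Control on every siRNA-dosed array, Aadac and Sult1a1 are below it on every one, and Cyp1a1 and Ahr overlap in all groups.

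Of 11 measured cytochromes P450, 2 fell in scrambled, 2 in siTNF, 5 in siTNF-OMe and 5 in siTNF-OMe-P, and none rose on all arrays. With the narrow arrays left out 6, 4, 6 and 7 fell, and 2 rose in each group but siTNF, where none did; the shares of all probe sets are those given above. The median difference of the 11 was -0.58 log2 in scrambled. Cyp2d26, of the drug-metabolising CYP2D family, had Control values of 9.21, 9.69 and 10.04 (lowest, median, highest) and scrambled values of 8.37, 8.67 and 9.36. One scrambled array, replicate 3 at 9.36, reached into the Control range. No array of the Tnf siRNA groups did, their highest being 8.77, 8.65 and 8.85. Scrambled replicate 3 also had the highest hepatocyte marker mean, 11.09, and siTNF replicates 3 and 4 had means of 9.31 and 9.33. Whether liver signal had a part in the Cyp2d26 values was not tested. Cyp2d26 fell by 0.96 ± 0.12 log2 in scrambled (limma, adjusted p = 5.36e-07), 1.95-fold, and by 1.09, 1.11 and 1.11 in the other groups. Without scrambled replicate 3 the scrambled fall was larger, with a difference of -1.08 (limma, adjusted p = 2.03e-08).

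Cyp2s1 is a P450 made mainly outside the liver, in epithelia. It ran from 9.50 through a median of 10.58 to 10.90 in Control and from 8.36 through 9.33 to 10.46 in scrambled, with overlap. Its medians were 9.04 in siTNF, 9.15 in siTNF-OMe and 8.99 in siTNF-OMe-P, and only the siTNF-OMe arrays, at most 9.27, all lay below Control. It fell by 1.00 ± 0.28 log2 in scrambled (limma, adjusted p = 0.0129) and by 1.04, 1.33 and 1.33 in the other groups. The scrambled call was lost without scrambled replicate 2, where the difference was -0.82.

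The other P450 calls were not shared by all groups. Cyp3a13, of the CYP3A drug-metabolising family, fell in siTNF-OMe by 0.99 ± 0.26 log2 and in siTNF-OMe-P by 0.92 ± 0.24 (limma, adjusted p 0.00804 and 0.00696). Cyp4f14, a fatty acid and leukotriene hydroxylase, fell in the same groups by 0.88 and 0.77 (adjusted p 0.0211 and 0.0277). The Cyp4f14 call was lost without Control replicate 3 or siTNF-OMe replicate 2 or 5 in the first group, and in the second without Control replicate 1, 3 or 7 or siTNF-OMe-P replicate 1, 3, 5 or 8. Cyp2f2 fell in siTNF-OMe by 1.11 ± 0.29 (adjusted p = 0.00667), without overlap with Control, and Cyp2c55, a CYP2C enzyme that oxidises arachidonic acid, fell in siTNF-OMe-P by 1.27 ± 0.39 (adjusted p = 0.0228), a call lost without siTNF-OMe-P replicate 5 or 8. In scrambled, the differences of these genes lay between -0.58 and -1.05 and did not pass on all arrays, and all 4 fell without the narrow arrays. None of these genes passed between siRNA-dosed groups, so their calls against Control do not show a difference between those groups.

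Cyp1a1, the classic target of the aryl hydrocarbon receptor, did not pass in any comparison with Control on all arrays. Its values were 6.36, 6.57 and 7.16 (lowest, median, highest) in Control, 6.38, 6.63 and 6.82 in scrambled, 6.39, 6.54 and 6.99 in siTNF, 6.40, 6.55 and 6.68 in siTNF-OMe and 6.44, 6.51 and 6.88 in siTNF-OMe-P. The 5 ranges overlapped. The difference in scrambled was -0.024 log2 with a 95% interval from -0.22 to 0.17 (limma, adjusted p = 0.938), and 0.11 without the narrow arrays. Cyp1b1, another target of that receptor, had a difference of 0.089, and it rose by 0.29 without the narrow arrays (limma, adjusted p = 0.00336). Both genes had low signals. Their means over the 36 arrays, 6.60 for Cyp1a1 and 6.72 for Cyp1b1, were above 17.0% and 19.3% of all probe set means. A fall at such levels could have gone unseen.

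Both sensors likewise did not pass. Ahr, the aryl hydrocarbon receptor itself, ran from 8.53 through 8.69 to 8.94 in Control and from 8.65 through 8.75 to 8.81 in scrambled, a difference of 0.021 (interval -0.14 to 0.18, limma, adjusted p = 0.931). Its differences in siTNF, siTNF-OMe and siTNF-OMe-P were 0.018, -0.010 and 0.074. Nr1i2, the pregnane X receptor, which responds to drugs and bacterial products, ran from 9.08 through 10.02 to 10.36 in Control and from 9.19 through 9.61 to 10.26 in scrambled. The Nr1i2 difference was -0.13 (interval -0.53 to 0.27, adjusted p = 0.807), and its differences in the other groups were -0.093, -0.33 and -0.45. On the arrays of wider spread Nr1i2 fell by 0.53 in scrambled (adjusted p = 0.00914), by 0.72 in siTNF-OMe (adjusted p = 7.00e-04) and by 0.66 in siTNF-OMe-P (adjusted p = 0.00200).

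Of 4 sulfotransferases, Sult1a1 and Sult1c2 fell in all 4 comparisons, and Sult1b1 and Sult1d1 passed in none on all arrays. Sult1a1 adds sulfate to phenols and phenolic drugs. Its Control values were 10.19, 10.83 and 10.98 (lowest, median, highest), and its scrambled values were 8.89, 9.54 and 10.00. The medians were 9.64 in siTNF, 9.11 in siTNF-OMe and 9.04 in siTNF-OMe-P, and no siRNA-dosed array overlapped Control. Sult1a1 fell by 1.21 ± 0.16 log2 in scrambled (limma, adjusted p = 2.74e-06), 2.31-fold, and by 1.18, 1.57 and 1.66 in the other groups. Its scrambled difference ran from -1.07 to -1.48 over 15 alternative settings of the fit, single batches among them.

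Sult1c2, a sulfotransferase of gut and kidney, had Control values of 9.23, 9.95 and 10.65 and scrambled values of 7.82, 8.96 and 9.35, with a small overlap. It fell by 1.14 ± 0.24 log2 in scrambled (limma, adjusted p = 8.67e-04) and by 0.92, 1.34 and 1.36 in the other groups. Sult1b1, an enzyme of thyroid hormone and phenol sulfation, ran from 9.16 to 10.54 in Control and from 9.92 to 10.50 in scrambled, a difference of 0.34 that did not pass and was 0.033 without the narrow arrays. Sult1d1, a catecholamine sulfotransferase, had a scrambled difference of -0.098 ± 0.33. With the narrow arrays left out Sult1d1 fell in siTNF-OMe by 0.75 and in siTNF-OMe-P by 0.82 log2 (limma, adjusted p 0.0202 and 0.0164).

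Glutathione transferases join glutathione to reactive compounds. Of 13 measured, 4 fell in scrambled, siTNF and siTNF-OMe and 5 in siTNF-OMe-P, none rose, and the median scrambled difference was -0.041 log2. With the narrow arrays left out 8, 5, 9 and 8 fell and none rose. Of all probe sets 21.9%, 12.2%, 24.1% and 21.9% then fell and 28.0%, 8.62%, 29.9% and 26.1% rose. On all arrays the shares that fell were 4.45%, 4.71%, 5.81% and 6.58%. The 4 transferases that fell throughout on all arrays were Gstm1, Gstm2, Gstm3 and Gstm4, of the mu class. The fifth was Gstt2 of the theta class. It fell by 0.50 ± 0.15 in siTNF-OMe-P (limma, adjusted p = 0.0161), a call lost without siTNF-OMe-P replicate 8. In the RefSeq annotation of GRCm38.p6, Gstm5, Gstm7, Gstm6, Gstm3, Gstm2, Gstm1 and Gstm4 follow each other in this order as neighbouring protein-coding genes on chromosome 3. Mu class genes are close in sequence, so signal shared between their probes is possible and was not tested.

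Gstm1 ran from 10.92 through a median of 11.25 to 11.46 in Control and from 10.23 through 10.50 to 10.65 in scrambled, without overlap. Its medians were 10.48 in siTNF, 10.58 in siTNF-OMe and 10.70 in siTNF-OMe-P, also without overlap with Control. Gstm1 fell by 0.73 ± 0.088 log2 in scrambled (limma, adjusted p = 4.06e-07), 1.66-fold, and by 0.69, 0.64 and 0.61 in the other groups. Gstm3 went from 9.72, 10.05 and 10.21 in Control to 8.97, 9.18 and 9.32 in scrambled, again without overlap, and fell by 0.81 ± 0.080 (adjusted p = 1.09e-08) and by 0.86, 0.79 and 0.71. A second probe set of Gstm3 fell by 1.12 ± 0.10 in scrambled.

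Gstm2 overlapped Control. Its Control values were 10.45, 11.32 and 11.53 and its scrambled values 10.24, 10.49 and 10.53, and all 7 scrambled arrays lay below the Control mean. It fell by 0.68 ± 0.13 log2 (limma, adjusted p = 3.20e-04) and by 0.57, 0.66 and 0.80 in the other groups. Gstm4 fell by 0.34 ± 0.097 in scrambled (adjusted p = 0.0165) and by 0.31, 0.40 and 0.33. In siTNF the Gstm4 call was lost on leaving out single arrays of either group, Control replicates 1, 2, 3 and 9 and siTNF replicates 2, 3 and 5.

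Gstm5, at the other end of the run, depended on which arrays were used. Its Control arrays spread from 8.81 to 10.69 with a median of 10.39, and its scrambled arrays from 9.69 to 10.51 with a median of 9.92. On all arrays the scrambled difference was 0.022 (95% interval -0.41 to 0.46, limma, adjusted p = 0.976), but without the narrow arrays, on which Control was lowest, Gstm5 fell by 0.51 ± 0.10 (adjusted p = 5.13e-04). With group means removed from both, the array SD had a correlation over the 36 arrays of 0.943 with Gstm5, given as a description. In the same way it was 0.750 with Gstm1 and 0.343 with Gstm3. Gsta4, an alpha class enzyme for lipid peroxidation products, Gstk1, Gsto1, Gstt1 and the 3 membrane enzymes Mgst1, Mgst2 and Mgst3 passed in no comparison on all arrays, with scrambled differences between -0.081 and 0.39.

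**Figure D4:**
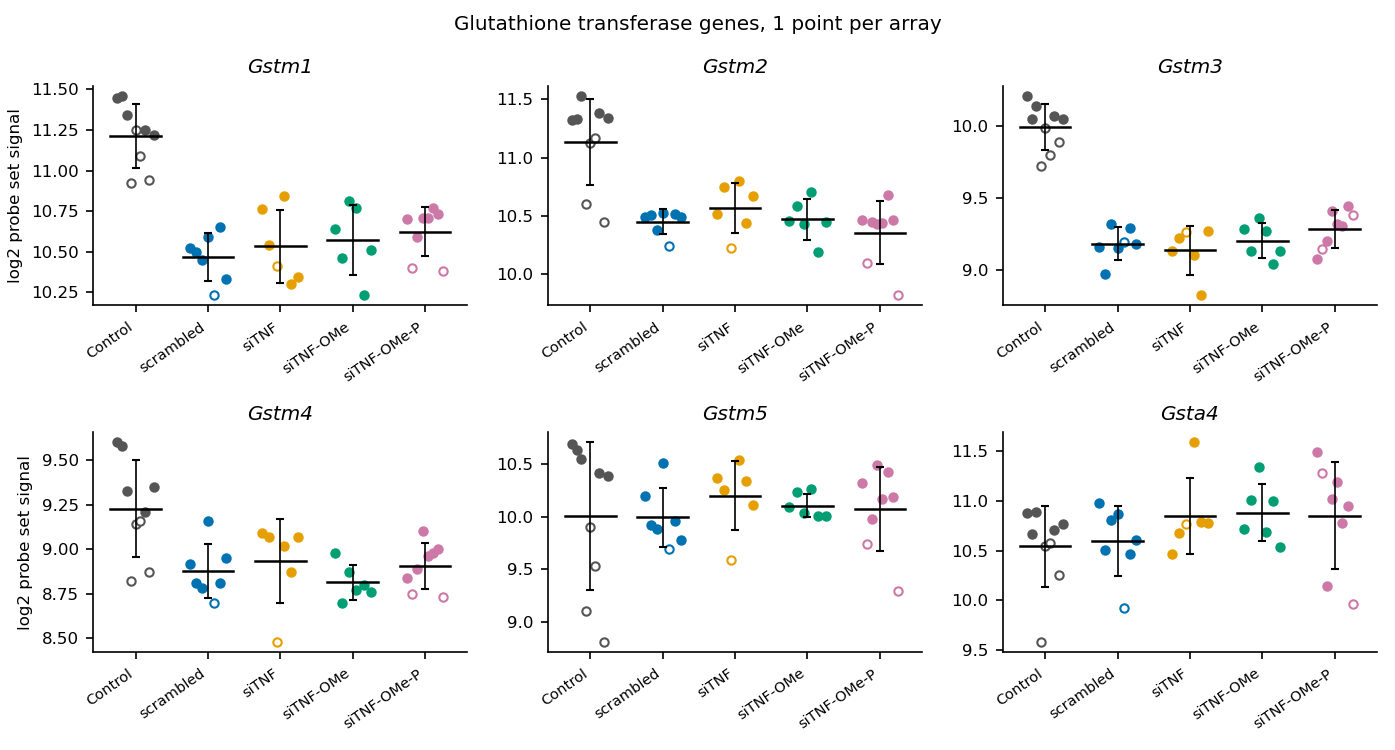
Log2 probe set signal (y axis) of the 5 Gstm genes and Gsta4 in the 5 groups (x axis), 1 point per array; lines and bars are the mean ± SD, and open points mark the arrays of narrow spread. Gstm1 and Gstm3 separate every siRNA-dosed array from Control, while the narrow Control arrays of Gstm5 reach down to 8.81.

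The promoters of 2 Gstm genes and of Cyp1a1 are shown because both Gstm genes lie in 1 run of neighbours yet differed in the result on all arrays, and Cyp1a1 is the receptor's best known target. RefSeq windows of 300 bases around the gene start, on GRCm38.p6, matched 39 of the 46 genes in 50 windows, and Abcc3, Aldh1a3, Ephx2, Fmo1, Gsta4, Ahr and Gstt2 were not matched. Capitals mark GCGTG, the core bound by the aryl hydrocarbon receptor, TGACNNNGC, the antioxidant response element core, AGGTCA, bound by nuclear receptors, or GTTAAT, bound by HNF1, on either strand. The windows are chr3:108017924-108018223 on the minus strand for Gstm1 (the first of its 2), chr3:107895604-107895903 on the plus strand for Gstm5 and chr9:57697363-57697662 on the plus strand for Cyp1a1.
Gstm1: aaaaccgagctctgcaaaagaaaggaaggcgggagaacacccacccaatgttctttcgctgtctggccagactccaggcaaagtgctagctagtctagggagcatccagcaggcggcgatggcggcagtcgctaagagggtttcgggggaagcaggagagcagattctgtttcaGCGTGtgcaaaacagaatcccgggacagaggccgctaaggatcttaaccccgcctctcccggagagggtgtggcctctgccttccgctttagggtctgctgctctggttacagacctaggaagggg
Gstm5: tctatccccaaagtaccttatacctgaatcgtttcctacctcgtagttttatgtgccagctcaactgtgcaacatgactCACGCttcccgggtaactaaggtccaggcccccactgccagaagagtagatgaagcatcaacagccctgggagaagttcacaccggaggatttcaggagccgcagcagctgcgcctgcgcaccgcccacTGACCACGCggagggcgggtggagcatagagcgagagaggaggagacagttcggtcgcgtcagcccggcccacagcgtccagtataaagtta
Cyp1a1: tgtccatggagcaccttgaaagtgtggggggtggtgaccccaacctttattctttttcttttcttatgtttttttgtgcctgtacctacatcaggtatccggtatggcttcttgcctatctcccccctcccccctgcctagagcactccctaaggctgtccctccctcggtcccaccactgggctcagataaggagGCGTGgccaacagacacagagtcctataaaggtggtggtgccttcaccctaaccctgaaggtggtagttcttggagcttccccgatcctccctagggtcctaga
The Gstm1 and Cyp1a1 windows each held 1 GCGTG. The Gstm5 window held 2 GCGTG matches, both on the other strand and 1 of them overlapping a TGACNNNGC match. GCGTG occurred in 22.0% of the 50 windows of these genes and in 32.4% of 32851 windows of all genes, TGACNNNGC in 10.0% and 12.4%, AGGTCA in 14.0% and 16.3%, and GTTAAT in 8.00% and 7.10%. All 13 genes that fell in every comparison had a window, and 1 of them held GCGTG, 0 held TGACNNNGC, 1 AGGTCA and 2 GTTAAT. A match is a run of letters and not a measured binding site. Aligned end to end, the windows of the 5 Gstm genes were 48.3% to 53.3% identical in pairs.

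Dio1, the deiodinase that makes the active thyroid hormone and clears its inactive form, showed the second largest fall in scrambled. Control ran from 8.85 through a median of 10.30 to 10.66, and scrambled from 7.69 through 8.07 to 9.76. The scrambled range overlapped Control through replicate 4, at 9.76, while the next highest scrambled array was at 8.30. The medians were 8.51 in siTNF, 7.73 in siTNF-OMe and 7.60 in siTNF-OMe-P, and the last 2 of these groups, at most 8.10 and 8.60, lay wholly below Control. Dio1 fell by 1.61 ± 0.30 log2 in scrambled (limma, adjusted p = 2.65e-04), 3.06-fold, and by 1.54, 2.09 and 2.16 in the other groups. Within hybridization batch 2 alone the scrambled difference was -1.23 and did not pass (adjusted p = 0.133).

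Of the 3 efflux pumps, Abcb1a, P-glycoprotein, fell in siTNF-OMe-P. Its Control values were 11.00, 11.89 and 12.11 (lowest, median, highest), its scrambled values 10.45, 11.29 and 11.81, and its siTNF-OMe-P values 10.35, 11.15 and 11.31, with overlap in each case. The siTNF-OMe-P fall was 0.74 ± 0.17 log2 (limma, adjusted p = 0.00235), and the scrambled difference of -0.51 ± 0.18 did not pass (adjusted p = 0.0673) but did without the narrow arrays, where it was -0.86 (adjusted p = 7.94e-04). Abcg2, a pump for drugs and porphyrins, and Abcc3, a pump for conjugates and bile salts, had scrambled differences of 0.012 and 0.015. On the arrays of wider spread Abcg2 fell by 0.47 in scrambled (adjusted p = 0.00615), and all 3 pumps fell in siTNF-OMe and siTNF-OMe-P, Abcg2 by 0.36 and 0.34 and Abcc3 by 0.49 and 0.54.

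A wider list of 156 genes of the same pathways, 139 of them measured, gave 12 rises and 13 falls in scrambled (18.0% called), 16 and 16 in siTNF (23.0%), 16 and 30 in siTNF-OMe (33.1%) and 18 and 35 in siTNF-OMe-P (38.1%). The shares over all probe sets were 11.7%, 13.8%, 14.8% and 15.9%. Without the narrow arrays the rises and falls were 17 and 57, 13 and 31, 18 and 60, and 22 and 54 in the same order. Of all probe sets 28.0%, 8.62%, 29.9% and 26.1% then rose and 21.9%, 12.2%, 24.1% and 21.9% fell. The list median was -0.036 log2 in scrambled, close to the -0.027 of all probe sets. Of 8 measured glucuronidation genes 3 fell in scrambled: Ugt2b35 and Ugt2b34, which encode glucuronosyltransferases, by 1.27 ± 0.14 and 0.90 ± 0.28 log2, and Ugdh, which makes their sugar donor, by 0.54 ± 0.16 (limma, adjusted p 8.40e-08, 0.0327 and 0.0219). Of 11 esterases and lactonases 1 rose, Ces1d by 0.66, and 2 fell, Ces2g by 0.79 and Bphl by 0.41. Sult2b1, a cholesterol sulfotransferase, fell by 0.55 ± 0.13 (adjusted p = 0.00436).

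Among 26 measured genes of aldehyde, carbonyl and alcohol metabolism 4 rose and 2 fell in scrambled. Dhrs9 and Rdh10, dehydrogenases that make retinal, the substrate of Aldh1a3, rose by 1.61 ± 0.26 and 1.06 ± 0.16 log2 (limma, adjusted p 4.26e-05 and 1.83e-05), and both also rose without the narrow arrays. Xdh, xanthine dehydrogenase, rose by 1.40 ± 0.18 (adjusted p = 1.21e-06), and Cbr3, a carbonyl reductase, and Maob, monoamine oxidase B, fell by 0.68 and 0.62. Of 26 other P450 genes and electron donors, Cyp39a1, an oxysterol hydroxylase, fell by 1.12 ± 0.21 and Cyp2w1 by 0.63 ± 0.11 (adjusted p 2.32e-04 and 1.07e-04), and Cyp7b1 rose by 0.25 (adjusted p = 0.0449). Of 20 receptors and regulators, Vdr, the vitamin D receptor, fell by 0.86 and Nr1i3, the constitutive androstane receptor, by 0.33, while Nr1h4, the bile acid receptor, rose by 0.66 (adjusted p 0.0327, 0.00322 and 0.0186). Hsd3b2 fell by 0.35 among 14 steroid and thyroid genes, and Slco3a1 rose by 0.59 among 14 transporters. In scrambled 7.27% of all probe sets rose and 4.45% fell, so single calls in such lists are not results about the lists. Cyp7b1, Ces1d, Nr1h4 and Hsd3b2 did not pass without the narrow arrays.

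Markers of cell types moved in the same comparison as the metabolic genes, and their part in these results was not tested. Of 12 epithelial markers 3 rose and 0 fell in scrambled, with a median of 0.14 log2, and without the narrow arrays none passed and the median was 0.033. Among 11 surface colonocyte markers 2 rose and 2 fell, with a median of 0.0051. The water channel Aqp8 and the phosphate carrier Slc20a1 fell by 1.13 and 0.93, and Aqp4 and Ceacam1 rose by 0.84 and 0.28. All 9 macrophage markers rose in scrambled, with a median of 1.33, and their mean level was 8.82 to 10.09 on the Control arrays and 10.61 to 11.36 on the siRNA-dosed ones. All 7 smooth muscle markers rose, with a median of 0.43, as did 4 of 8 fibroblast, 5 of 7 endothelial, 4 of 7 goblet cell and 3 of 8 neutrophil markers, while 4 of 6 B and plasma cell markers fell. With the narrow arrays left out 8 of 9 macrophage, 6 smooth muscle, 2 fibroblast, 6 endothelial, 3 goblet cell and 6 neutrophil markers rose, and 5 B and plasma cell markers fell. Of all probe sets in scrambled, 7.27% rose and 4.45% fell on all arrays, and 28.0% rose and 21.9% fell without the narrow ones.

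Squamous epithelial markers, genes of the lining of the anal canal, were read beside Aldh1a3. None of 7 passed in scrambled or siTNF, with medians of 0.15 and 0.45 log2, and 6 of 7 rose in siTNF-OMe and in siTNF-OMe-P, with medians of 1.77 and 1.46. In siTNF the high mean of 9.96 came from replicate 3, with 7.89 the highest of the others, and without that array Aldh1a3 rose by 2.33 (limma, adjusted p = 2.75e-11). In scrambled, where no array exceeded a squamous mean of 7.90, Aldh1a3 rose by 2.25. Whether squamous tissue had a part in the Aldh1a3 differences was not tested. None of 5 hepatocyte markers rose in any of the 4 comparisons, though scrambled replicate 3 stood apart at 11.09, and Ttr, transthyretin, fell in each, by 1.17 log2 in scrambled. All 14 scrambled calls were kept without that array.

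No metabolic gene differed between siRNA-dosed groups at the threshold. In each of the 6 comparisons among scrambled, siTNF, siTNF-OMe and siTNF-OMe-P, 0 of the 46 genes and 0% of all probe sets passed (limma). At an unadjusted p under 0.05, taking scrambled as reference, there were 0 of the 46 in siTNF, 1 in siTNF-OMe and 2 in siTNF-OMe-P, with 311, 455 and 836 of 28853 probe sets. Between Tnf siRNAs there were 2 with siTNF-OMe over siTNF, 4 with siTNF-OMe-P over siTNF and 0 between the modified siRNAs, with 494, 1002 and 74 probe sets. Without the narrow arrays none of the 46 passed either.

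The intervals show what size of difference these arrays would still allow. For siTNF against scrambled, the 95% interval lay within 1 log2 on either side of 0 for 44 of 46 genes, all but Cyp2c55 and Sult1d1. With scrambled as the reference it held for 43 genes in each of the other Tnf siRNA groups. It held for 41 when siTNF-OMe was set over siTNF, 43 when siTNF-OMe-P was, and 43 for the pair of modified siRNAs. Smaller differences lie within these intervals, so the counts do not show that the siRNAs acted alike.

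Chemical modification is the named difference among the Tnf siRNA groups, while the scrambled siRNA differs from the Tnf siRNAs in sequence. No dose or time is given in the sources used here to match the groups by. Against Control, 6 of 7 squamous markers rose in siTNF-OMe and in siTNF-OMe-P, with medians of 1.77 and 1.46 log2. The medians were 0.15 in scrambled and 0.45 in siTNF, where no squamous marker passed. Whether squamous tissue had a part in the differences below was not tested. The gene with the smallest p against scrambled was Sult1a1, at -0.46 log2 in siTNF-OMe-P (95% interval -0.80 to -0.11), -0.37 in siTNF-OMe (-0.73 to 0.0023) and 0.022 in siTNF (-0.35 to 0.39), each with a limma adjusted p of 1.00. For siTNF-OMe-P over siTNF its difference was -0.48 (-0.84 to -0.12, adjusted p = 0.974). Aldh1a3 was 0.39 higher in siTNF-OMe than in scrambled (0.047 to 0.73, adjusted p = 1.00). Dio1 had differences from scrambled of 0.070, -0.48 and -0.55 in siTNF, siTNF-OMe and siTNF-OMe-P, with intervals reaching from -1.19 to 0.75. Between the modified siRNAs the smallest p was that of Cyp2f2, 0.61 higher in siTNF-OMe-P (-0.0028 to 1.22).

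**Figure D5:**
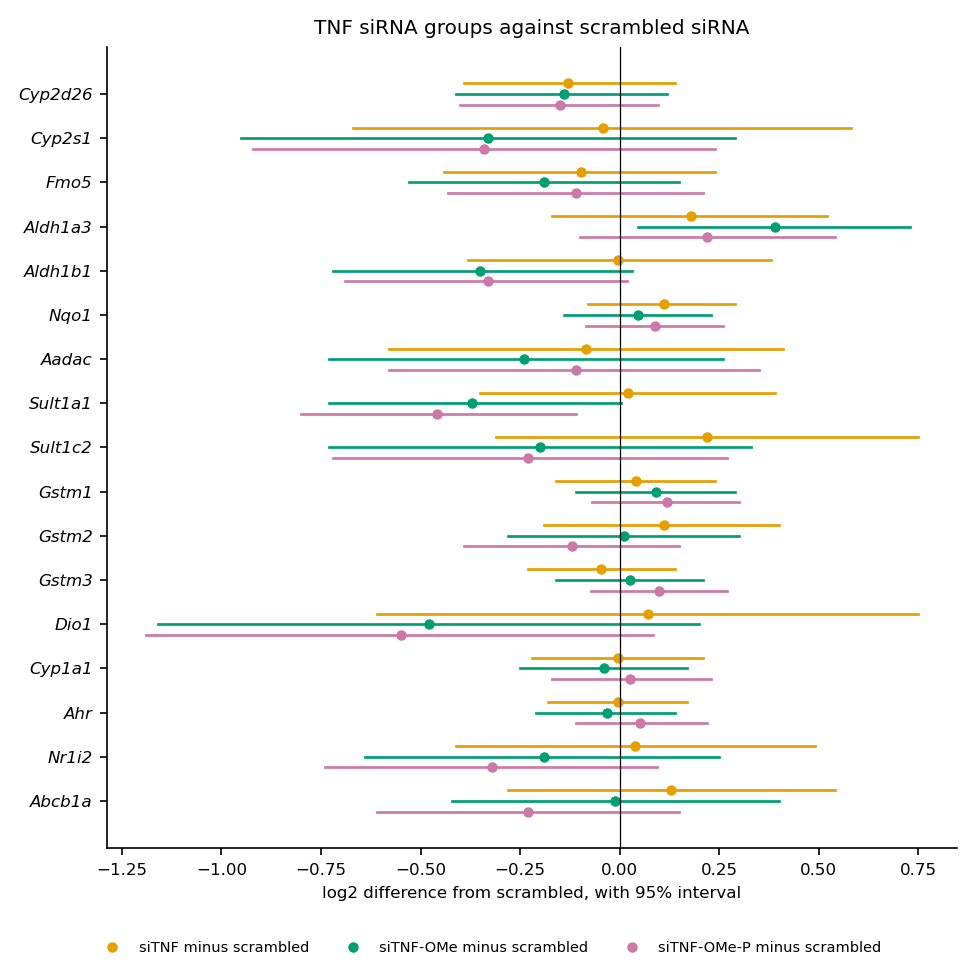
Differences of the 3 Tnf siRNA groups from scrambled on the log2 scale (x axis) with 95% intervals, for the 17 genes described with values (y axis); colours are the groups. Nearly all intervals include 0, and those of Sult1a1 in siTNF-OMe-P and Aldh1a3 in siTNF-OMe do not, though no gene passed after adjustment.

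The genes were also set against 2 measures of the colon within the 27 siRNA-dosed animals, with group and batches in the model. The first was the activity of myeloperoxidase (MPO), an enzyme of neutrophils, which ran from 0.009 to 0.088 U per mg in Control and from 0.031 to 1.35 in the dosed animals. The second was colon length, 7.2 to 8.1 in Control and 5.2 to 7.1 in the dosed animals, in the labelled unit of mm, although the size fits cm. Every Control animal had a longer colon than every dosed animal, and Control was left out of the fit. No gene and 0% of all probe sets passed for either measure (limma).

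For MPO activity 40 of the 46 slopes were below 0, against 55.2% of all probe sets, with a median of -0.21 log2 per U per mg against -0.011. The slopes come from the same animals and are not independent of each other, and this count was not tested. The fit kept the arrays of narrow spread and had no term for array SD. At an unadjusted p under 0.05 there were 8 of the 46 genes and 1481 of 28853 probe sets. Cyp2s1 had the smallest p, with a slope of -1.13 ± 0.37 (limma, p = 0.00538, adjusted p = 0.466, n = 27 animals), with an unadjusted p of 0.0416 without the 2 animals farthest from the median in MPO activity, and -0.52 without batch terms (p = 0.123). Fmo5 had a slope of -0.51 ± 0.18 and Dio1 of -0.83 ± 0.41, and those of Aadac, Sult1a1 and Gstm1 were -0.28, -0.26 and -0.098. Aldh1a3 had a slope of 0.34 ± 0.24. For colon length the median slope was 0.017 for the 46 genes and for all probe sets, and 1 gene, Gsta4, had an unadjusted p under 0.05, with a slope of 0.47 (adjusted p = 1.00).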

How the data were processed

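Distal colon RNA from 36 animals was measured on 1 Affymetrix array each, after amplification of 25 ng in 3 amplification and 2 hybridization batches, per the labels. The authors deposited log2 values for 28853 probe sets. The submitters' processing notes name Partek and RMA, with no version or setting. The number of arrays limits the precision.

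Probe sets were named from the platform annotation: 21789 carried 1 gene, 1621 several and 5443 none. Differences were fitted with limma 3.58.1 (R 4.3.3; lmFit and eBayes with a trend) on all 36 arrays, with group, amplification batch and hybridization batch as terms. P-values are two-sided and Benjamini-Hochberg adjusted over all 28853 probe sets, and those under 0.05 were called; no filter on low values was applied. Each array has its own colon measures, so arrays were taken as separate animals.

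The genes and the pathway and marker lists were chosen with earlier results of these data known. Described with values by group were genes called in scrambled against Control with a difference of at least 0.5 log2, genes called among siRNA-dosed groups or in a slope, and Cyp1a1, Ahr, Nr1i2, Nqo1, Abcb1a and Dio1. Values of other genes among the 46, such as Gstm5, Adh1, Sult1b1 and Cyp2f2, were added after they were seen. Up to 3 risen and 3 fallen genes with the largest difference were named per pathway list, and up to 2 per marker list. The risen surface colonocyte markers were named as well. The fit was tested on simulated data. Alternatives covered batch terms, a replicate block, array spread, array weights, normalization, dim probe sets and each array left out.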

Additional observations from a re-analysis of the deposited data

Results flagged for a closer look

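Of 85 groups of arrays for the genes described with values, 7 held an array far from the others by Dixon's test, which flags about 1 in 20 groups by chance. In scrambled, Cyp2d26 was 9.36 on replicate 3 with the nearest array at 8.74. Replicate 4 of the same group had the highest Fmo5, 9.63 with the nearest at 8.94, and the highest Dio1, 9.76 with the nearest at 8.30. Sult1c2 was lowest on scrambled replicate 2, at 7.82 with the nearest at 8.75. The other 3 were all on siTNF replicate 3, an array of narrow spread: Cyp1a1 at 6.99 with the nearest at 6.58, Nr1i2 at 8.76 with the nearest at 9.76 and Abcb1a at 10.78 with the nearest at 11.33.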

How the results depend on the processing

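Each count is of the 46 genes called against Control. Without the 8 narrow arrays the counts were 30 (scrambled), 35 (siTNF-OMe) and 35 (siTNF-OMe-P), with array weights 35, 24 (siTNF), 35 and 35 (56.4%, 27.5%, 47.7% and 47.1% of all probe sets), and with the array SD as a covariate 24, 27 (siTNF) and 28 (siTNF-OMe; 25.6%, 26.3% and 29.8%). Within hybridization batch 2 alone they were 7, 7 and 11 for scrambled, siTNF and siTNF-OMe (3.63%, 5.49% and 7.29%), and within batch 1 alone 13 for siTNF-OMe-P (4.89%). Amplification batch 2 alone gave 9, 8, 10 and 13 (11.9%, 13.1%, 7.58% and 10.5%), batch 3 alone 2, 2, 4 and 1 (0.187%, 0.381%, 0.700% and 0.201%), with fewer arrays, and batch 1 alone 33 for siTNF-OMe-P (30.5%) and 1, Sult1d1, for siTNF-OMe-P over siTNF. Some genes not called on all arrays were called there with the other sign, and the cause was not tested. Without the narrow arrays these were, in scrambled, Cyp4b1 (0.17 log2), Gstm5 (-0.51), Gsto1 (-0.35), Gstt1 (-0.25) and Abcg2 (-0.47), in siTNF-OMe Cyp4b1 (0.17), Gstm5 (-0.44), Gstt1 (-0.24), Mgst1 (-0.35) and Abcg2 (-0.36), and in siTNF-OMe-P Cyp4b1 (0.20), Gstm5 (-0.31) and Abcg2 (-0.34). With array weights they were, in scrambled, Cyp4b1 (0.20), Gstm5 (-0.46), Gstt1 (-0.23), Abcg2 (-0.35) and Abcc3 (-0.28), in siTNF-OMe Cyp4b1 (0.17), Gstm5 (-0.36), Gstt1 (-0.18) and Mgst1 (-0.26), and in siTNF-OMe-P Cyp4b1 (0.19) and Gstm5 (-0.30). In amplification batch 1 alone they were Gstm5 (-0.63) and Abcg2 (-0.69) in siTNF-OMe-P. Leaving out each array in turn gave 13 to 19, 14 to 16, 16 to 19 and 18 to 22 calls, and 0 to 0 between siRNA groups. Of 28853 probe sets, 2629 to 3565, 3093 to 4460, 3405 to 4465 and 3987 to 4962 were then called against Control.

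With a replicate block and no batch terms, the counts were 16 in scrambled, with all 14 calls kept, and 16 in siTNF, where the Gstm4 call was lost. They were 20 in siTNF-OMe and 21 in siTNF-OMe-P. The shares of all probe sets called with this block are not given here, so these counts have no background. The numbers did not pair the arrays: deviations of same-numbered arrays had a median correlation of 0.124 over 64 pairs, and 5 of 36 arrays correlated best with an array of their own number.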
